A study of Mus musculus with 15 samples.

Results

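The 9 genes described here encode intermediate filament proteins and nuclear lamins. They were taken by symbol: nestin (Nes), vimentin (Vim), desmin (Des), synemin (Synm), the keratins Krt8 and Krt18, and the lamins Lmna, Lmnb1 and Lmnb2. They are 9 of the 55487 genes in the gene table, and all 9 were present in it and in the table of reads split by parental genome. The set was selected on total and allele-assigned counts of SIRT7-KO and WT in these same libraries. Calls in that contrast, in total and in allelic counts, are therefore given as a description. RNA-seq measured polyA RNA in female cells of a C57BL6/CAST hybrid strain, labelled TTF (commonly short for tail-tip fibroblasts). The tested libraries carry the genotype SIRT7-KO and are named KO 2, KO 9 and KO 22 after the numbers of 3 knockout lines. They were set against 3 libraries of the genotype S7WT_TTF, named WT 1, WT 2 and WT 3. SIRT7 is a nuclear deacylase, and the title of the series concerns dosage compensation of the X chromosome.

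Total counts lay between 61065582 and 61506413 per library, and the split assigned 37.0% to 37.9% of counts to a parental genome. The labels list 15 libraries, of which 9 were not analysed here, among them the SIRT7-HY libraries and those with SIRT7 added back. Whether libraries of a group are separate cultures or animals is not said in the labels, and the spread behind each p-value may be technical. The biological coefficient of variation was 0.378 within SIRT7-KO and 0.135 within WT. The share of allele-assigned counts from genome 1 on chromosome 3, leaving out Nes, was 68.7%, 65.9% and 72.9% in KO 2, 9 and 22, against 52.5%, 52.9% and 52.9% in WT 1, 2 and 3. On this chromosome the WT libraries lay closer together than the SIRT7-KO lines, while on chromosome 7 the SIRT7-KO lines lay closer together (SD 0.119 in SIRT7-KO and 0.810 in WT). Whether the WT libraries are several lines is not said in the labels, so differences between lines and by genotype cannot be told apart. The SIRT7-KO columns may also belong to a later set of libraries, and set and genotype could not then be told apart either. Sirt7 itself had 512, 694 and 787 gene counts in KO 2, 9 and 22, against 833, 1107 and 598 in WT 1, 2 and 3 (log2 fold change -0.31, SE 0.27, adjusted p = 0.515, edgeR). Its full-length coding transcript had 2, 0 and 0 estimated counts in SIRT7-KO and 53, 58 and 159 in WT. These are estimates that divide reads between forms, and in WT too they fell well short of the Sirt7 gene counts. Fibroblast markers were present in every library: none of the 10 was at 0, and their summed level was 22035 to 30270 CPM (counts per 1000000 counts) in SIRT7-KO and 13129 to 13466 CPM in WT.

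Intermediate filaments are rope-like polymers of coiled-coil proteins. Cytoplasmic types form networks from the nucleus to the cell surface, and lamins form a mesh under the inner nuclear membrane. Vimentin is the main cytoplasmic filament protein of fibroblasts, desmin that of muscle, and keratins 8 and 18 pair in simple epithelia. Nestin and synemin are large proteins that build into filaments of vimentin or desmin. Lmna gives lamin A and lamin C by alternative splicing, while Lmnb1 and Lmnb2 give the B-type lamins. The level per transcript length, in TPM (transcripts per 1000000) computed from the transcript counts, ran from vimentin to the keratins. Vim stood at 3606 ± 985 TPM in SIRT7-KO and 2216 ± 60.6 TPM in WT (SD, n = 3 each), followed by Lmna at 967 ± 256 and 1018 ± 149.7 TPM. Lmnb1 stood at 166.6 ± 26.5 TPM in SIRT7-KO and 169 ± 2.09 TPM in WT, and Lmnb2 at 55.4 ± 6.43 and 71.6 ± 3.87 TPM. Nes had 40.9 ± 14.1 TPM in SIRT7-KO and 47.2 ± 2.52 TPM in WT, and its range met that of Lmnb2 among SIRT7-KO libraries but not among WT libraries. Synm had 4.41 ± 1.47 TPM in SIRT7-KO and 1.321 ± 0.130 TPM in WT, and Des 1.08 ± 0.134 and 0.934 ± 0.295 TPM. The ranges of Synm and Des met among WT libraries and were apart among SIRT7-KO libraries. Krt8 reached at most 0.156 TPM and Krt18 at most 0.149 TPM in any library.

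Of the 9 genes, 7 passed the filter on low counts, and both keratins did not. Synm was called higher in SIRT7-KO (edgeR's quasi-likelihood test, Benjamini-Hochberg adjusted p under 0.05 over all genes), no gene of the set was called lower, and 6 were not called. Over all 16678 genes tested, 6.73% were called, 3.54% as higher and 3.19% as lower. The groups did not overlap in 4 of the 7 genes, against 35.9% of all genes tested. Vim, Des and Synm lay above every WT library in all 3 SIRT7-KO lines, and Lmnb2 lay below, by CPM. By TPM the groups overlapped for Des, with WT 1 the highest library. The median log2 fold change was -0.06 over these 7 genes and 0.02 over all genes tested. In bulk RNA, fewer cells of a type and less RNA per cell cannot be told apart.

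**Figure D1:**
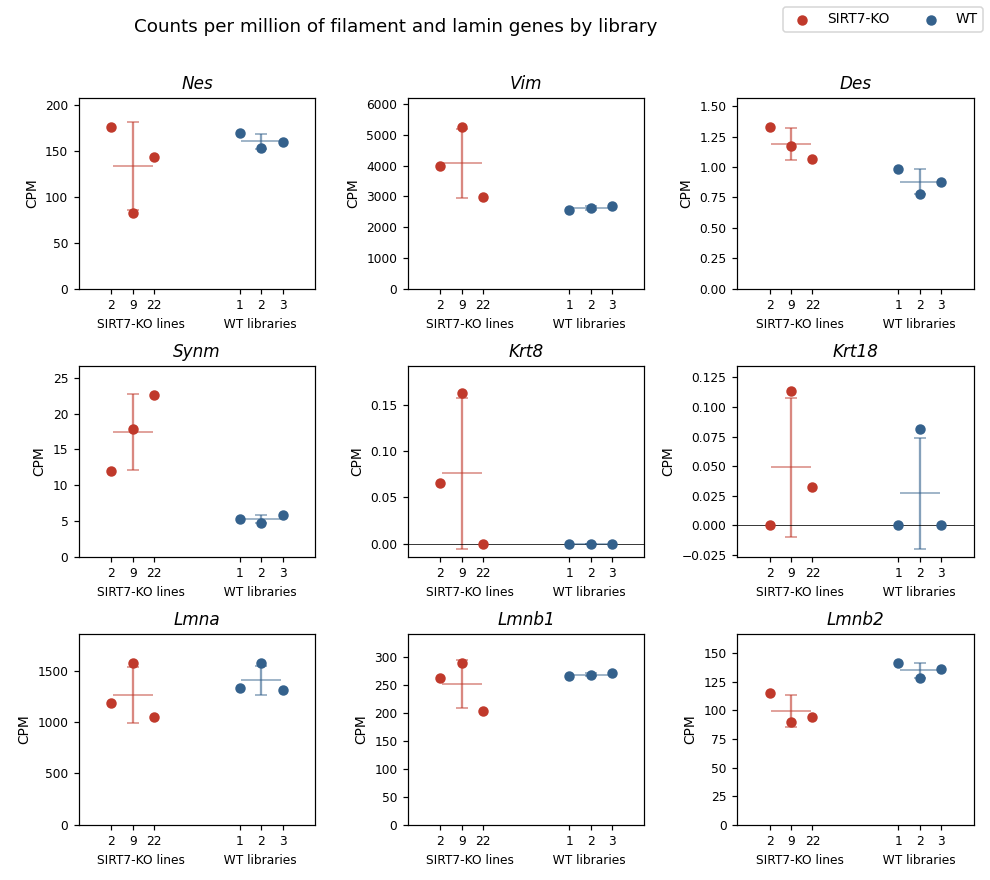
CPM of each of the 9 genes in each library, with SIRT7-KO lines 2, 9 and 22 in red left of WT libraries 1, 2 and 3 in blue. Horizontal bars are group means and error bars the SD (n = 3). Synm lies between 11.9 and 22.6 CPM in SIRT7-KO and between 4.74 and 5.85 CPM in WT, and both keratins lie near 0.

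Synemin was the gene with the largest log2 fold change among the 7 tested. Synm (ENSMUSG00000030554, GRCm38 chromosome 7, 67730160 to 67759742, minus strand) had 728, 1100 and 1380 counts in KO 2, 9 and 22, against 325, 291 and 360 counts in WT 1, 2 and 3. Every SIRT7-KO line lay above every WT library. The level averaged 17.5 ± 5.33 CPM in SIRT7-KO and 5.30 ± 0.558 CPM in WT (SD, n = 3 each), a 3.37-fold rise (log2 fold change 1.75, SE 0.26, adjusted p = 0.0197, edgeR). Without WT 1, WT 2 or WT 3 the adjusted p was 0.125, 0.120 and 0.109 (edgeR), so the call was lost without any 1 of them. The log2 fold change of Synm then stayed between 1.67 and 1.83, while the genes called over all genes fell from 1123 to between 45 and 51. Ttc23 overlaps Synm on the other strand and the strand setting of the counting is not given, so shared reads cannot be told apart. Ttc23 had 938, 1521 and 1697 counts in SIRT7-KO and 867, 1155 and 616 counts in WT. Gm45102, also on the other strand, had at most 20 counts in any library.

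The share of the longer synemin form was higher in every SIRT7-KO line than in any WT library, but its size depended on which deposited table was read. The Synm counts fell on 2 protein-coding transcripts, which differ by an in-frame stretch of 906 bases (302 codons). Synm-202 carries the stretch and codes for 1561 residues, and Synm-201 lacks it and codes for 1259. The stretch lies at chr7:67733554-67734459 (GRCm38, minus strand) and its first 90 bases, chr7:67734370-67734459, are shown because they tell the 2 forms apart.
Synm stretch, first 90 bases: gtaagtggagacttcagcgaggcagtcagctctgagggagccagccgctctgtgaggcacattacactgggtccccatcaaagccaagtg
In the table of all reads, Synm-202 took 64.1%, 59.4% and 59.6% of the Synm counts in KO 2, 9 and 22, against 28.6%, 10.997% and 29.4% in WT 1, 2 and 3. In the split transcript table, with genome 1, genome 2 and unassigned counts summed, it took 74.1%, 73.0% and 73.0% in SIRT7-KO, against 59.5%, 63.5% and 63.3% in WT. The longer form led in every SIRT7-KO line by both tables, and in WT by the split table but not by the table of all reads. The mean difference was 38.0 percentage points by the table of all reads and 11.3 points by the split table (two-sided exact permutation test, p = 0.10 for each, the smallest that 3 against 3 allows). For the table of all reads the adjusted p of this test was 0.225 over 9 transcript shares, and shares of the split table were not adjusted. The table of all reads gave Synm-202 467, 653 and 823 estimated counts in SIRT7-KO and 93, 32 and 106 in WT. The split table gave it 521, 851 and 929 in SIRT7-KO and 188, 181 and 219 in WT. The WT values of both tables cannot be reconciled, since the allele-assigned counts alone (169, 165 and 178) exceed those of the table of all reads. The level of each form in WT is thus uncertain.

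Among allele-assigned counts, the difference in Synm lay mostly in genome 2. Synm had 70, 118 and 212 counts from genome 1 and 302, 455 and 529 from genome 2 in KO 2, 9 and 22. WT 1, 2 and 3 had 84, 71 and 89 counts from genome 1 and 85, 94 and 89 from genome 2. Genome 1 thus held 18.8%, 20.6% and 28.6% in SIRT7-KO, against 49.7%, 43.0% and 50% in WT (log2 change of the genome 1 to genome 2 ratio -1.65, SE 0.30, adjusted p = 0.0110, edgeR allelic model). Per 1000000 split counts, unassigned ones included, genome 2 gave 7.07 ± 1.904 CPM in SIRT7-KO and 1.47 ± 0.0698 CPM in WT, and genome 1 gave 2.20 ± 1.19 and 1.34 ± 0.153 CPM. The rest of chromosome 7 differed in the same direction, with 31.6%, 31.9% and 31.7% from genome 1 in SIRT7-KO and 58.2%, 56.7% and 58.0% in WT. The difference of Synm from its chromosome was -9.06 points in SIRT7-KO and -10.06 points in WT, and these ranges overlapped (exact permutation test, two-sided, p = 0.80). Of 18 other genes within 2 Mb of the start of Synm, 13 were called toward genome 2 in SIRT7-KO and none toward genome 1. Their median genome 2 share was 64.9% in SIRT7-KO and 43.0% in WT. Over all 12984 genes tested, 23.0% were called in allelic ratio, in either direction. At least 99.4% of the allele-assigned Synm counts of either genome were given to Synm-202 in every library.

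The 250 bases before the RefSeq start of Synm (chr7:67759743-67759992, minus strand, GRCm38.p6) are shown because this gene had the called change in total counts. A match to CCAAT, here on the reverse strand as ATTGG, is in capitals.
Synm promoter: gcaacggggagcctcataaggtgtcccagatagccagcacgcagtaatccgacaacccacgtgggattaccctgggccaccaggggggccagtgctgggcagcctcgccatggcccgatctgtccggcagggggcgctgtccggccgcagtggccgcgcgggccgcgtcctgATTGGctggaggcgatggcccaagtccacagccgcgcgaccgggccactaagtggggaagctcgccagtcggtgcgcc
The window holds 23 CG pairs, against a median of 6 over 32851 promoter windows of that length. Motifs were searched on both strands of every window. The letters CCAAT occur in 33.8% of all windows and GGGCGG in 32.7%. The TATA motif TATAAA occurs in 12.4% and the AP-1 motif TGANTCA in 6.75%. The CArG box, known by that name as the SRF motif, occurs in 1.47%. Besides CCAAT none of these was found in the Synm window, and a match describes letters, not a bound site.

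By likeness over the 6 libraries, protein-coding genes whose log2 CPM closely followed Synm included Plxnb1 and Arf5. Plxnb1, a semaphorin receptor, had Pearson's r of 0.998 and 17.2, 27.0 and 33.0 CPM in KO 2, 9 and 22, against 8.70, 8.06 and 8.91 CPM in WT 1, 2 and 3. Arf5, a small GTPase of membrane traffic, had r of 0.998 but a smaller difference that was not called (log2 fold change 0.29, adjusted p = 0.0953, edgeR). It had 120.9, 130.8 and 133.8 CPM in KO 2, 9 and 22, against 108.2, 105.0 and 109.1 CPM in WT 1, 2 and 3. Of 9764 genes compared, 181 had an r over 0.95. All these values share the same libraries and the same group difference.

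The total level of nestin differed by less than its spread, while the RNA of a single parental copy was nearly absent from SIRT7-KO cells. Nes (ENSMUSG00000004891, GRCm38 chromosome 3, 87971078 to 87980451, plus strand) had 10735, 5039 and 8801 counts in KO 2, 9 and 22, against 10330, 9386 and 9816 counts in WT 1, 2 and 3. KO 9 was the lowest, KO 2 lay above every WT library, and the groups overlapped. The level averaged 133.9 ± 47.7 CPM in SIRT7-KO and 160.5 ± 8.20 CPM in WT (SD, n = 3 each). This was not called (log2 fold change -0.23, SE 0.26, adjusted p = 0.616, edgeR). Without KO 9 the log2 fold change was 0.02.

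Genome 2 gave 19, 23 and 20 Nes counts in KO 2, 9 and 22, against 1657, 1541 and 1624 in WT 1, 2 and 3. Genome 1 gave 8009, 3738 and 6336 counts in SIRT7-KO and 5539, 5106 and 5343 in WT. The genome 2 share was 0.237% in KO 2 (95% Wilson interval 0.152% to 0.369%), 0.612% in KO 9 (0.408% to 0.916%) and 0.315% in KO 22, and 23.0% to 23.3% in WT. Intervals cover counting error only. Genome 2 thus stood at 0.341 ± 0.0331 CPM in SIRT7-KO and 26.5 ± 1.06 CPM in WT, while genome 1 stood at 99.6 ± 35.8 and 87.7 ± 3.86 CPM. The log2 change of the genome 1 to genome 2 ratio was 6.38 (SE 0.34, adjusted p = 0.00144, edgeR allelic model) and stayed between 6.09 and 6.78 without any 1 library. By the same model 3 of the 7 genes with enough allelic counts were called (Nes, Synm and Lmna), against 23.0% of 12984 genes tested. The genome 1 shares of the groups did not overlap in these same 3 of 7 genes, against 44.0% of 12780 genes.

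**Figure D2:**
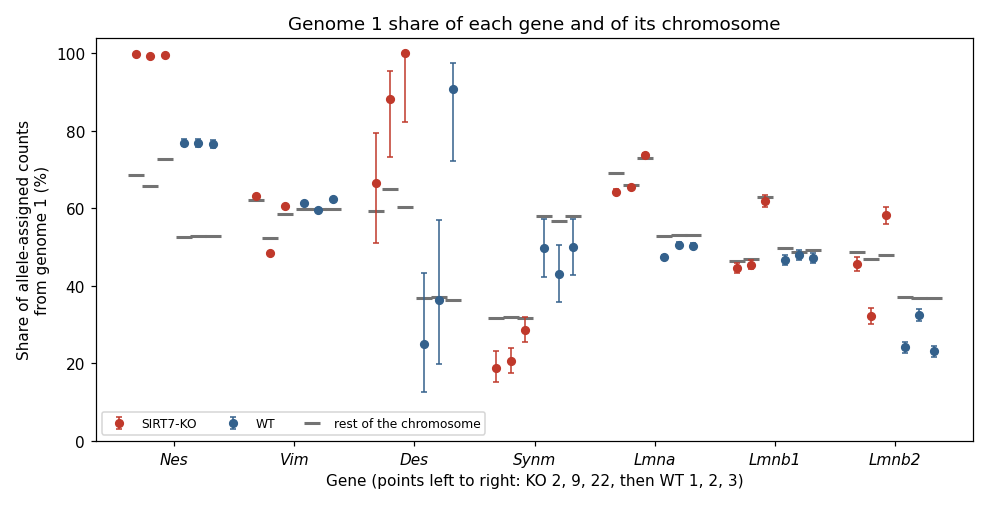
Share of allele-assigned counts from genome 1 (%) for each gene with enough counts, in KO 2, 9 and 22 (red) and then WT 1, 2 and 3 (blue), with 95% Wilson intervals. Grey bars are the rest of the chromosome in the same library. Nes lies above 99% in SIRT7-KO and near 77% in WT, while Lmna and Lmnb1 lie close to their chromosomes in both groups.

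In every SIRT7-KO line Nes stood farther from its chromosome than in any WT library. Against the rest of chromosome 3, the log2 odds of genome 1 for Nes, with 0.5 added to each count, lay higher by 7.55, 6.37 and 6.85 in KO 2, 9 and 22, and by 1.596, 1.56 and 1.55 in WT 1, 2 and 3 (exact permutation test, two-sided, p = 0.10, the smallest possible; adjusted p = 0.700 over 7 genes). The same quantity overlapped between groups for the other 6 genes. Within 2 Mb of the start of Nes, 76 other genes could be tested, with a median genome 2 share of 29.1% in SIRT7-KO and 44.7% in WT. Of these, 37 were called toward genome 1 in SIRT7-KO and none toward genome 2, against 23.0% of all 12984 genes called in either direction. Paqr6 was the 1 neighbour with a genome 2 share under 1% in SIRT7-KO and of at least 10% in every WT library, but it had almost no counts of either genome in SIRT7-KO. Across all autosomal genes with a genome 1 share of 10% to 90% in every WT library, 18 of 10579 (0.170%) had under 1% from 1 genome in every SIRT7-KO line. Genome 2 was the missing one in 7 of these and genome 1 in 11, and Nes was the 1 such gene on chromosome 3, among genes with allele-assigned counts in every library.

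**Figure D3:**
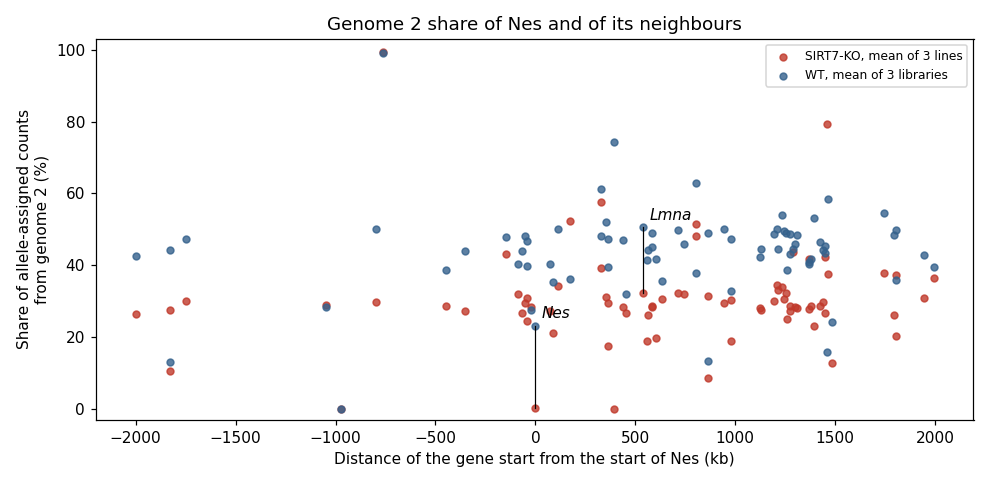
Share of allele-assigned counts from genome 2 (%) against the distance of each gene start from that of Nes (kb), as means of the 3 SIRT7-KO lines (red) and of the 3 WT libraries (blue). Lines join both means of Nes and of Lmna. Nes is at 0.388% in SIRT7-KO and 23.2% in WT, and Lmna, 539 kb away, at 32.2% and 50.5%.

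The shares of the Nes transcripts also differed between groups. Nes-201 codes for 1864 residues and Nes-203 for 1820, because Nes-203 lacks an in-frame stretch of 132 bases (44 codons) at chr3:87976581-87976712 (GRCm38, plus strand). The stretch is shown because its presence separates both forms.
Nes stretch absent from Nes-203: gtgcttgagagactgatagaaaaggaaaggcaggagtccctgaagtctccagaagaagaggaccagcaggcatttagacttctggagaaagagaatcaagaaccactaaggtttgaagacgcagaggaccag
Nes-203 took 4.87%, 6.21% and 7.40% of Nes counts in KO 2, 9 and 22, against 19.7%, 17.2% and 18.3% in WT 1, 2 and 3, with no overlap, in the table of all reads. In the split transcript table, summed, it took 12.3%, 3.51% and 21.7% in SIRT7-KO, against 35.3%, 32.7% and 23.3% in WT. The groups did not overlap there either, but KO 22 lay close to WT 3 and the level of each library differed between tables. The mean difference was -12.3 percentage points by the table of all reads and -17.9 points by the split table (two-sided exact permutation test, p = 0.10 for each, the smallest possible). The adjusted p of this test, 0.225 over 9 shares, applies to the table of all reads only. Of the allele-assigned counts of the split table, Nes-203 made up 35.3% to 37.7% of genome 2 counts of Nes in WT. Of genome 1 counts of Nes it made up 4.17% to 4.32% in SIRT7-KO and 5.21% to 8.68% in WT. In every WT library the short form took a larger share of the genome 2 counts than of the genome 1 counts. These shares are estimates that divide reads between forms, and reads outside the stretch do not separate them.

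The promoter window of Nes (chr3:87970843-87971092, plus strand, GRCm38.p6) is printed because 1 parental copy of the gene was nearly absent from the RNA. It is the RefSeq reference and not the sequence of either copy in these cells. Both matches to GGGCGG, here on the reverse strand as CCGCCC, are in capitals.
Nes promoter: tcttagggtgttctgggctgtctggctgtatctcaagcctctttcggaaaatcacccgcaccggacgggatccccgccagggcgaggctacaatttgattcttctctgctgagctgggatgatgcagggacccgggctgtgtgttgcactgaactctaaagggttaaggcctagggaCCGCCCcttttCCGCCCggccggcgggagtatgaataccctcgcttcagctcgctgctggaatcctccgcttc
The window holds 15 CG pairs, against the median of 6 over all windows, and none of the other 4 motifs.

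Vimentin, the most abundant of the set, was higher in all 3 SIRT7-KO lines without passing the test. Vim (ENSMUSG00000026728, chromosome 2, 13573927 to 13582826, plus strand) had 243278, 322206 and 182323 counts in KO 2, 9 and 22, against 155268, 161389 and 164656 in WT 1, 2 and 3. The lines spread far more widely than the WT libraries, and KO 22 was nearest to WT. The level averaged 4068 ± 1133 CPM in SIRT7-KO and 2616 ± 68.0 CPM in WT (log2 fold change 0.67, SE 0.19, adjusted p = 0.0853, edgeR). Other tests passed it, with an adjusted p of 0.0148 by DESeq2 and 0.0490 by limma-voom with weights per group, and edgeR without KO 22 gave 0.0170. The other edgeR settings did not pass it. The adjusted p was 0.0865 with RLE scaling, 0.162 without the filter and 0.119 with chromosome medians taken out (edgeR). It was 0.119 and 0.0910 without KO 2 and KO 9, and 0.267, 0.249 and 0.250 without WT 1, 2 and 3 (edgeR). Genome 1 gave 63.3%, 48.6% and 60.5% of the allele-assigned Vim counts in SIRT7-KO, against 61.3%, 59.6% and 62.5% in WT, near the 62.2%, 52.4% and 58.6% and the 59.89%, 59.97% and 59.82% of the rest of chromosome 2. The allelic change was not called (log2 -0.21, SE 0.24, adjusted p = 0.590, edgeR). Vim-201 took 93.8% to 94.9% of Vim counts in SIRT7-KO and 94.2% to 97.8% in WT.

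Desmin was low in all libraries. Des (ENSMUSG00000026208, chromosome 1, 75360329 to 75368579, plus strand) had 81, 72 and 65 counts in KO 2, 9 and 22, against 60, 48 and 54 in WT 1, 2 and 3. All 3 lines lay above the WT libraries by CPM but not by TPM, at 1.19 ± 0.133 CPM in SIRT7-KO and 0.881 ± 0.1005 CPM in WT, but the difference was not called (log2 fold change 0.46, SE 0.23, adjusted p = 0.262, edgeR). With 18 to 39 allele-assigned counts in SIRT7-KO and 22 to 28 in WT, its genome 1 share ran from 66.7% to 100% in SIRT7-KO and from 25% to 90.9% in WT and was not called (adjusted p = 0.333, edgeR).

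Among the lamins, Lmna and Lmnb1 differed by less than their spread and Lmnb2 was lower in all 3 lines. Lmna (ENSMUSG00000028063, chromosome 3, 88480147 to 88509956, minus strand) had 72411, 96726 and 64118 counts in KO 2, 9 and 22, against 81497, 96640 and 81045 in WT 1, 2 and 3 (log2 fold change -0.12, SE 0.16, adjusted p = 0.685, edgeR). KO 9 and WT 2 had nearly equal counts. Lmnb1 (ENSMUSG00000024590, chromosome 18, 56707813 to 56753424, plus strand) had 16083, 17795 and 12506 counts in SIRT7-KO, against 16264, 16509 and 16769 in WT (log2 fold change -0.06, SE 0.13, adjusted p = 0.796, edgeR). Lmnb2 (ENSMUSG00000062075, chromosome 10, 80901203 to 80918245, minus strand) had 7066, 5510 and 5767 counts in SIRT7-KO, against 8625, 7869 and 8404 in WT. It averaged 99.9 ± 13.9 CPM in SIRT7-KO and 135.3 ± 6.65 CPM in WT (log2 fold change -0.41, SE 0.11, adjusted p = 0.0830, edgeR). The adjusted p of Lmnb2 was 0.0187 by DESeq2, 0.0304 with chromosome medians taken out and 0.0307 without KO 2 (both edgeR). The other settings did not pass it, with 0.0879 by limma-voom, and 0.0795 with RLE scaling and 0.136 without the filter by edgeR. Without KO 9 or KO 22 the adjusted p was 0.113 and 0.0995, and without WT 1, 2 or 3 it was 0.278, 0.207 and 0.261 (edgeR). Set against Lmnb1 within a library, per length, Lmnb2 stood at 0.369, 0.261 and 0.388 in SIRT7-KO and at 0.448, 0.401 and 0.422 in WT. These ratios did not overlap (log2 difference -0.34, exact permutation test, two-sided, p = 0.10, the smallest possible; adjusted p = 0.167 over 5 ratios). The ratio of Lmna to Lmnb1 was 5.10, 6.57 and 5.61 in SIRT7-KO and 5.63, 7.07 and 5.37 in WT, with overlap (log2 difference -0.06, exact permutation p = 0.60).

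**Figure D4:**
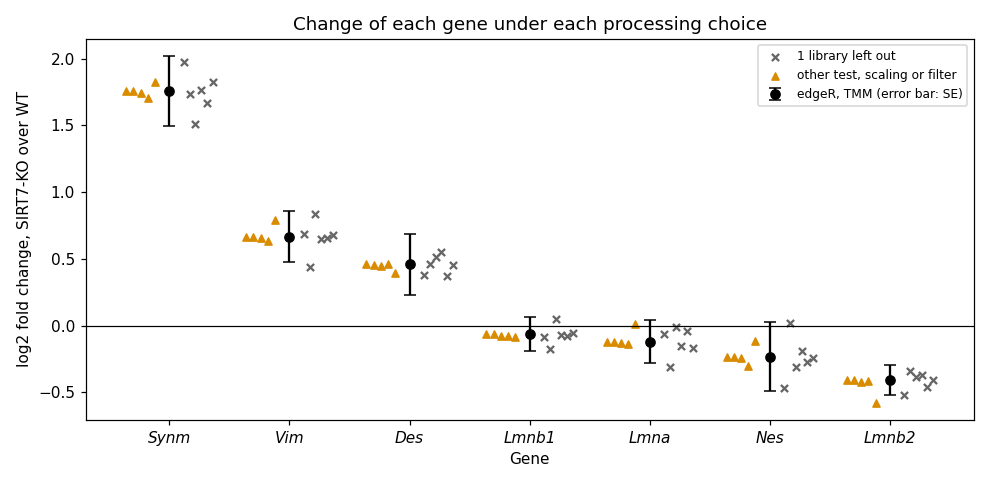
The log2 fold change of SIRT7-KO over WT of the 7 tested genes by edgeR with its SE (black), under other tests, scalings and filters (triangles) and without 1 library at a time (crosses). Synm stays between 1.51 and 1.97 when a library is left out, Lmnb2 between -0.52 and -0.34, and Nes, Lmna and Lmnb1 lie on both sides of 0 over all settings.

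The lamin A and lamin C forms of Lmna part ways near the end of the coding sequence. Lmna-201, the lamin A form, codes for 665 residues and Lmna-203, the lamin C form, for 574, and they share 1705 coding bases from the start codon. The first pair of sequences below, on the minus strand of chromosome 3 in GRCm38, shows where they part, with bases after the shared part in capitals. The last one shows the end of lamin A, where the capitals are the codons of the farnesylated CaaX box and the stop, which the lamin C form lacks.
Lmna-203 coding end: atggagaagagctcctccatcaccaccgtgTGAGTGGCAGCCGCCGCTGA
Lmna-201 after the shared part: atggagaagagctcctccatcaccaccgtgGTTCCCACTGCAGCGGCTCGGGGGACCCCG
Lmna-201 coding end: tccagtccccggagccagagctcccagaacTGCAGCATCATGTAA
Lmna-201 took 56.3%, 36.6% and 60.5% of Lmna counts in KO 2, 9 and 22, against 57.4%, 36.005% and 58.6% in WT 1, 2 and 3. Lmna-203 took 41.5%, 61.9% and 37.2% in SIRT7-KO, against 40.7%, 62.3% and 39.5% in WT. The lamin C form led in KO 9 and in WT 2 and the lamin A form in the other 4 libraries, so libraries split within each group and not between groups (mean difference of Lmna-201 0.452 points, exact permutation test, two-sided, p = 0.90). KO 9 and WT 2 were also the libraries with the highest total Lmna count of their groups. In the split table no allele-assigned count was given to Lmna-203 in any library.

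The parental share of Lmna lay near that of its chromosome in both groups. Lmna had 64.3%, 65.4% and 73.7% from genome 1 in KO 2, 9 and 22, against 47.4%, 50.6% and 50.4% in WT 1, 2 and 3 (log2 change of the ratio 1.12, SE 0.20, adjusted p = 0.0103, edgeR). Its difference from the rest of chromosome 3 was -1.55 points in SIRT7-KO and -3.56 points in WT, with overlap (exact permutation test, two-sided, p = 0.40). Its start lies 539 kb from that of Nes, the other gene of the set on this chromosome. Genome 1 gave 269 ± 23.5 CPM of Lmna in SIRT7-KO and 205 ± 34.1 CPM in WT, and genome 2 gave 130.1 ± 34.4 and 211 ± 43.0 CPM. The opposite differences of both copies stood beside a total that differed by less than its spread. Lmnb1 had 44.7%, 45.4% and 61.9% from genome 1 in SIRT7-KO, against 46.7%, 47.9% and 47.2% in WT, and the rest of its chromosome had 46.4%, 47.0% and 63.0%, against 49.8%, 48.6% and 49.1% (adjusted p = 0.688, edgeR). Lmnb2 had 45.7%, 32.3% and 58.2% in SIRT7-KO, against 24.2%, 32.5% and 23.1% in WT, with WT 2 just above KO 9 (log2 change 1.201, SE 0.42, adjusted p = 0.0981, edgeR). The rest of chromosome 10 had 46.9% to 48.7% from genome 1 in SIRT7-KO and 36.8% to 37.1% in WT. Without WT 1 the allelic calls of Lmna and Synm were lost (adjusted p = 0.0530 and 0.0536, edgeR), and without WT 3 that of Synm (0.0536), while Lmnb2 passed without KO 9 (0.0198).

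**Figure D5:**
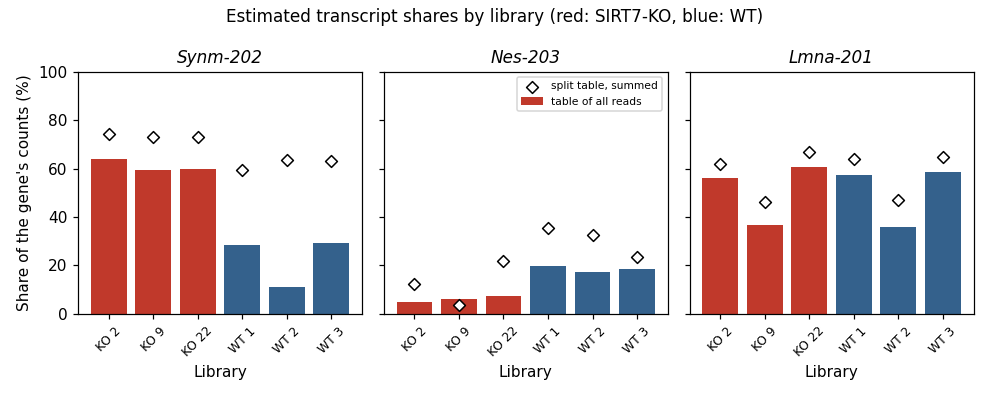
Estimated share of each gene's counts (%) given to Synm-202, Nes-203 and Lmna-201 in KO 2, 9 and 22 (red) and WT 1, 2 and 3 (blue). Bars are the table of all reads and diamonds the split table summed over genomes and unassigned counts. Synm-202 in WT is at most 29.4% by the bars and at least 59.5% by the diamonds, Nes-203 in KO 22 is 7.40% and 21.7%, and Lmna-201 is lowest in KO 9 and WT 2 by both.

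The epithelial keratins were nearly absent. Krt8 (ENSMUSG00000049382, chromosome 15, 101996698 to 102004482, minus strand) had 4, 10 and 0 counts in KO 2, 9 and 22 and 0 in all WT libraries. Summed over the lines, this was 4.67-fold above a floor of 3 counts set for the WT group. KO 22 was at 0 like WT, so the groups overlapped and no lower bound of a difference follows. Krt18 (ENSMUSG00000023043, chromosome 15, 102028180 to 102032027, plus strand), its filament partner, had 0, 7 and 2 counts in SIRT7-KO and 0, 5 and 0 in WT. KO 9 held most counts of both genes in SIRT7-KO. No test was made of either. Of the epithelium markers Krt1 and Esrp1 were at 0 in every library, and the sum of the 10 markers was 3.79 to 5.60 CPM in SIRT7-KO and 4.73 to 5.59 CPM in WT.

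Against vimentin in the same library, per length, the ratios of both associated filament genes differed between groups in opposite directions. Both ratios share Vim, so a higher Vim lowers each of them. The log2 fold change of total counts was 0.67 for Vim and -0.23 for Nes, neither called, and 1.75 for Synm. The log2 ratio of Synm to Vim was -10.2, -10.0 and -8.86 in KO 2, 9 and 22, against -10.7, -10.9 and -10.6 in WT 1, 2 and 3. That of Nes to Vim was -6.04, -7.53 and -5.90 in SIRT7-KO, against -5.44, -5.64 and -5.58 in WT. Neither ratio overlapped between groups, with mean differences of 1.02 and -0.94 on the log2 scale (exact permutation test, two-sided, p = 0.10 for each, the smallest possible; adjusted p = 0.167 over 5 ratios). Without KO 22 the difference of Synm to Vim was 0.60, and without KO 9 that of Nes to Vim was -0.42. The ratio of Des to Vim overlapped (difference -0.42, exact permutation p = 0.40).

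The wider filament family and its linkers held a few called genes, against 6.73% called and a median log2 fold change of 0.02 over all genes tested. Of 23 other cytoplasmic filament genes 11 were tested, 1 rose, 1 fell and 9 were not called (median log2 fold change -0.17). Prph, the neuronal type III protein peripherin, had 32, 123 and 109 counts in KO 2, 9 and 22, against 565, 404 and 477 in WT 1, 2 and 3 (log2 fold change -2.42, SE 0.50, adjusted p = 0.0414, edgeR). Iffo2, a filament family orphan gene, averaged 69.1 ± 4.003 CPM in SIRT7-KO and 44.6 ± 1.17 CPM in WT (log2 fold change 0.66, adjusted p = 0.0177, edgeR). Of 19 linkers and partners of filaments 18 were tested, 3 rose, none fell and 15 were not called (median 0.55). Fhl1, a LIM-domain protein of muscle and fibroblasts on the X chromosome, averaged 576 ± 43.6 CPM in SIRT7-KO and 220.1 ± 13.2 CPM in WT (log2 fold change 1.42, adjusted p = 0.00220, edgeR). Dtna, which codes for the synemin-binding dystrobrevin alpha, averaged 35.5 ± 19.4 and 5.93 ± 0.4002 CPM (2.60, adjusted p = 0.0279). Jup, plakoglobin of desmosomes and adherens junctions, averaged 170.9 ± 51.8 and 91.4 ± 6.20 CPM (0.93, adjusted p = 0.04997).

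None of 18 tested partners of the lamina was called (edgeR; median log2 fold change -0.10). Their smallest p-values belonged to Syne1, the linker nesprin-1, with 106.8 ± 23.5 CPM in SIRT7-KO and 69.1 ± 4.94 CPM in WT (adjusted p = 0.0649, edgeR), and to Lemd2, an inner nuclear membrane protein, with 49.5 ± 8.27 and 69.1 ± 4.17 CPM (adjusted p = 0.109). None of the 5 genes of lamin maturation was called either (median -0.01). The farnesyltransferase subunits Fnta and Fntb came nearest, with adjusted p of 0.168 and 0.288 (edgeR).

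Genes linked to actin and the factor SRF, and markers of other cells, are given beside these values. Of 12 SRF and actin genes 2 rose, 1 fell and 9 were not called (median 0.38). The smooth muscle actin Actg2 averaged 1290 ± 35.0 CPM in SIRT7-KO and 340 ± 10.96 CPM in WT, and the smooth muscle myosin Myh11 2.44 ± 0.803 and 0.473 ± 0.229 CPM, while calponin Cnn1 averaged 1.81 ± 0.704 and 18.4 ± 3.17 CPM (adjusted p = 7.50e-04, 0.0312 and 0.00706, edgeR). The 10 smooth muscle and pericyte markers hold these same 3 genes and no other call among 9 tested, and summed to 11502 to 16727 CPM in SIRT7-KO and 9159 to 10029 CPM in WT. Of 10 fibroblast markers 3 rose, the collagens Col1a1, Col1a2 and Col3a1, with log2 fold changes of 0.93, 1.25 and 1.10. Of 10 skeletal muscle markers 1 was tested, the actin Acta1, which rose (log2 fold change 2.11, adjusted p = 0.0158, edgeR), while Myod1, Myog, Pax7, Actc1 and Myh3 were at 0 in every library. The skeletal list summed to 48.5 to 111.3 CPM in SIRT7-KO and 17.4 to 20.9 CPM in WT. Of the nerve, endothelium and leukocyte lists 4, 1 and 2 genes were tested, and none was called. Foxd3, Cdh5, Cldn5, Adgre1 and Cd52 of these lists were at 0 in every library, but other markers were not. Lyz2 averaged 13.4 ± 7.82 CPM in SIRT7-KO and 5.92 ± 0.441 CPM in WT, and Cd68 4.57 ± 1.80 and 4.67 ± 0.152 CPM. The leukocyte list summed to 11.26 to 27.4 CPM in SIRT7-KO and 10.23 to 11.22 CPM in WT. The endothelium list summed to 0.833 to 5.64 CPM in SIRT7-KO and 2.31 to 2.76 CPM in WT. The nerve list summed to 6.11 to 37.8 CPM in SIRT7-KO, with the highest value in KO 9 through Tubb3, and 9.20 to 10.05 CPM in WT. Whether these differences had a part in the values of Synm, Vim and Nes was not tested.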

How the data were processed

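PolyA libraries were made and sequenced at BGI, per the labels' protocols. StringTie 1.3.3, HISAT2 2.1.0, Trimmomatic 0.36 and the builds mm10 and GRCm38 are named in the submitters' processing notes. The sources used here give neither the strand and splitting settings nor the strain that is genome 1. Estimated counts of genes and of transcripts were deposited, once over all reads and once split by parental genome. They are whole numbers and were used as deposited. SIRT7-KO columns were matched to lines 2, 9 and 22 by name.

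The groups were compared with edgeR 4.0.16 in R 4.3.3 (quasi-likelihood, TMM, default filter, adjustment over all genes). CPM is counts per 1000000 total counts. Allelic ratios were tested in edgeR by the interaction of allele and genotype with library terms, where allele-assigned counts averaged 20 or more. TPM used the transcript counts and annotated lengths. Exact permutation tests were run in scipy 1.17.1. Coordinates come from GENCODE M21, which held 55141 of 55487 genes, and promoters from RefSeq, which held 8 of the 9 genes. Both models were also run on simulated data. The simulated total counts had the same spread in both groups, unlike these libraries (coefficient of variation 0.378 in SIRT7-KO and 0.135 in WT). The simulated allelic counts had a fixed spread, so the runs give no error rate for these libraries. Alternatives were DESeq2 1.42.0, RLE scaling, no filter, limma-voom (limma 3.58.1), chromosome medians taken out, other coverage minimums, a logit test, exon-union lengths, and 1 library left out. The named genes were all 9 genes, Sirt7, up to 4 called genes per list by p (or, with none, the 2 with the smallest p), and the 3 genes most like each called gene, of which 1 is not reported here. Transcript shares from the split table, the odds against the chromosome, the neighbours and the count of genes with 1 missing copy were added after seeing the data. The genes and lists were chosen with earlier results of these data known.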

Additional observations from a re-analysis of the deposited data

Results flagged for a closer look

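The allelic ratio of 3 of the 7 genes tested was called different between SIRT7-KO and WT (edgeR allelic model, adjusted over all genes). Over all 12984 genes tested, 23.0% were called. The set was selected on these same allelic counts, so the calls are a description. The log2 change of the genome 1 to genome 2 ratio was 6.38 for Nes, -1.65 for Synm and 1.12 for Lmna. The rest of chromosome 3 held 69.1% ± 3.53 from genome 1 in SIRT7-KO and 52.8% ± 0.231 in WT beside Nes, and the rest of chromosome 7 held 31.7% ± 0.119 in SIRT7-KO and 57.6% ± 0.810 in WT beside Synm (SD, n = 3 each). Set against the rest of the chromosome, the log2 odds of genome 1 differed between groups by 5.35 for Nes, without overlap. The difference was -0.10 for Synm and 0.11 for Lmna, both with overlap (exact permutation test, two-sided, p = 0.10, 0.80 and 0.40 for Nes, Synm and Lmna). The causes of the chromosome-wide shifts were not tested. Groups of 3 libraries are too small to look for single libraries that stand apart.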

How the results depend on the processing

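The 1123 genes called became 2895 with DESeq2 and 396 without the filter on low counts, and 45 to 2482 when 1 library was left out (51, 45 and 50 without WT 1, 2 and 3; 2482 without KO 22). The 1 gene of the set called became 3 with DESeq2, 2 with limma-voom, 2 with chromosome medians taken out, and 0 to 2 without 1 library. The 2992 genes called in allelic ratio became 1710 to 3822 without 1 library (1720, 1710 and 1741 without WT 1, 2 and 3). The sign turned for Lmna with chromosome medians taken out (0.0106). Without 1 library the log2 fold change ranged from -0.46 to 0.0186 for Nes and from -0.18 to 0.0523 for Lmnb1, and the allelic change from -0.39 to 0.0502 for Vim and from -0.13 to 0.38 for Lmnb1. The log2 ratio difference of Lmna to Lmnb1 ranged from -0.16 to 0.0596, and the share difference from -6.88 to 7.72 points for Lmna-201 and from -8.19 to 6.73 points for Lmna-203. With shares taken from the split transcript table, a choice made after seeing the data, the difference turned to 0.860 points for Vim-201 and -0.260 points for Lmna-201, was 11.3 points for Synm-202 in place of 38.0, and -17.9 for Nes-203 in place of -12.3. The difference also turned for Lmnb2-204, from 0.198 points by the table of all reads to -36.05 points by the split table, with overlap. Its mean share was 99.9% in SIRT7-KO and 99.7% in WT by the table of all reads. By the split table it was 26.7% and 62.8%, so the share of this form is uncertain. The causes were not tested. Of 139 values of single genes from fits across all genes, 121 kept their direction and their side of the threshold. Ratios and shares are not counted there, since 3 libraries against 3 cannot pass it. No paired analysis was possible because the columns of the groups share only the number 2. The ratio of Krt8 to Krt18 could not be made because of counts of 0.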
